A study of Mus musculus with 4 samples.

Results

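The 45 genes described here encode the scaffolds of the postsynaptic side of the synapse and the partners that hold glutamate and GABA receptors there. They were taken as a list of names. No threshold on a measured value entered the list, but it was drawn up with earlier results of these data known. Each of the 45 names matched exactly 1 of the 45706 features in the count files, and all 45 were among the 13513 genes tested.

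At an excitatory synapse, membrane-associated guanylate kinases (MAGUKs, the Dlg and Magi proteins) bind receptors and adhesion molecules at the membrane, GKAP proteins (Dlgap) link them to Shank, and Shank and Homer form the deeper layer towards the actin cytoskeleton. AMPA receptors, which carry fast glutamate currents, travel and gate with auxiliary subunits of the TARP (Cacng), cornichon (Cnih) and Shisa families. Gephyrin (Gphn) is the main scaffold of the inhibitory postsynapse. Granule cells born in the adult dentate gyrus receive GABAergic input first and build their glutamatergic spines later.

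Nuclei came from CAGfloxStop-Sun1/sfGFP mice of both sexes that also carry a CreERT2 driver active in neural progenitors, so that tamoxifen gives these progenitors and all their progeny a GFP-tagged nuclear envelope. All groups share the genotype and the tamoxifen. The methods give the mice as 6 to 8 weeks of age and do not state the age at dissection. If all were induced at that age, age at dissection rises with the time after tamoxifen and cannot be told apart from it. The groups are these times, 1, 2, 4 and 8 weeks (w1, w2, w4 and w8). Each is 1 library made from a pool of left dentate gyri of 4 mice. Weeks therefore have no replicate, and the label marks any cell in which the driver was active and its descendants, oligodendrocyte precursors included.

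Of 17046 barcodes, the 14367 nuclei with a deposited cluster name were used, with 13227971 to 28595331 unique molecular identifiers (UMIs) per library, and any pair of libraries shared 1 to 6 barcodes. The trajectory runs from radial glia-like stem cells (RGL) through neural progenitors (NPC), neuroblasts (NB1, with NB2 beside it), immature (GCimm1, GCimm2) and young granule cells (GCyoung) to mature ones (GCmat1, with GCmat2 beside it). Of markers chosen for the names, 6 of 6 were highest in NPC, 5 of 7 in a neuroblast cluster, 3 of 6 in RGL, 3 of 6 in an immature and 3 of 5 in a mature cluster. Median depth rose from 4091 UMIs per nucleus in RGL to 8138 in GCmat1. The share of nuclei with a UMI, whose median over the members went from 11.2% in RGL to 53.7% in GCmat1, went from 5.98% to 19% once each nucleus was thinned to 2000 UMIs.

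Levels are UMI counts of a gene relative to all UMIs of the same nuclei, in CPM. Changes are log2 fold changes between clusters from 1 fit of 29 sums per library and cluster with edgeR's quasi-likelihood test, with the library as a term, trimmed-mean (TMM) scaling and Benjamini-Hochberg adjustment over all genes tested. To be called, a gene had to differ 1.5-fold or more with an adjusted p no higher than 0.05. Shares of all genes called are those of this fit, and counts of members under alternatives have no such share beside them. The authors drew the clusters on expression in the same nuclei, so these p-values are descriptive. They set differences between clusters against the scatter among the 29 sums that the cluster and library terms leave. They do not measure a spread between mice or between pools. The 2 scales differ: TMM factors lay between 1.04 and 1.42 in NPC and NB1 sums but between 0.707 and 0.767 in GCyoung and the larger GCmat1 sums, and without them the median of all genes from NB1 to GCmat1 moved from -0.04 to -0.63. A gene can thus be called higher with near-equal CPM, and such members are named as they come.

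The members' summed UMIs grew along the trajectory. They made up 0.884% of all UMIs in RGL and 0.829% in NPC, 1.26% in NB1, 1.69% in GCimm1, 2.36% in GCimm2, 3.22% in GCyoung and 3.17% in GCmat1. Within RGL the 4 libraries lay between 0.81% and 0.934%, within NB1 between 1.22% and 1.28%, and within GCmat1 between 2.95% and 3.27%, so that the ranges of these 3 clusters do not overlap. Most of these UMIs belong to 8 genes, Dlg2, Magi1, Magi2, Dlgap1, Gphn, Il1rapl1, Kalrn and Anks1b, which alone went from 0.615% in RGL to 2.41% in GCmat1. The other 37 members went from 0.27% to 0.759%. Those 8 are not in the expression table the authors clustered, from which the authors removed features found in most nuclei, so the clusters were drawn without them.

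**Figure D1:**
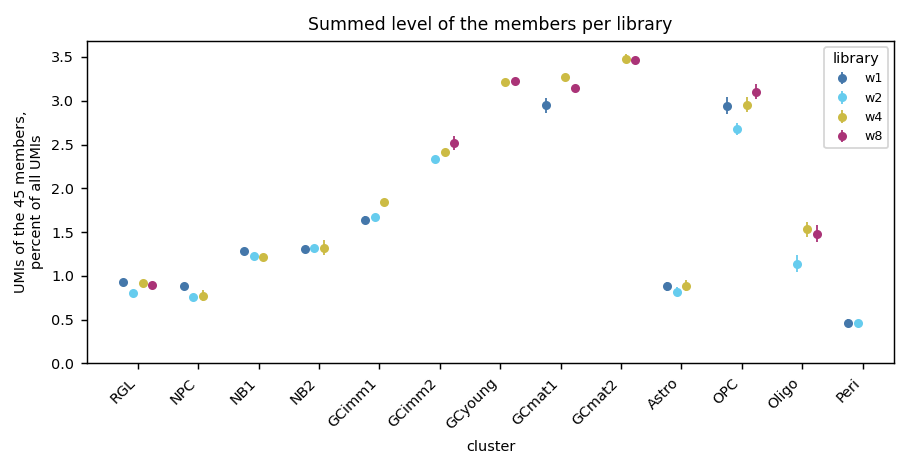
Summed UMIs of the 45 members as a percent of all UMIs (vertical axis) in each cluster (horizontal axis). Each point is 1 library with at least 10 nuclei of the cluster and the bars are 95% Poisson intervals of the count. RGL and NPC libraries lie below 0.95%, GCyoung and GCmat1 libraries at 2.95% or above, and OPC libraries between 2.68% and 3.1%.

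The members are long genes. Their median span is 108 kb against 27.6 kb over all genes tested, and 25 of them exceed 100 kb, as do 17% of genes tested. In nuclei, where introns are counted, long genes collect more UMIs, so CPM is compared here between clusters of 1 gene and not between genes. Long genes also moved more often than others. From NB1 to GCmat1, 36.3% of the 2292 tested genes over 100 kb were called higher and 24.9% lower. Of the 25 long members 16 and 2 were. From NPC to NB1 these were 29.3% and 22.6%, beside 15 and 3. From NB1 to GCimm1 they were 20.7% and 10.8% (7 and 1 long members), and to NB2 6.41% and 3.84% (4 and 0). From GCimm1 to GCimm2 they were 18.8% and 6.54% (10 and 0), and from GCimm2 to GCyoung 19.5% and 16% (12 and 2). From GCyoung to GCmat1 they were 4.8% and 5.89% (2 and 1), and to GCmat2 from GCmat1 8.51% and 11.4% (4 and 4).

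From RGL to NPC, 8 members were called higher and 12 lower, where 13.7% of all genes tested were higher and 15.9% lower. Among tested genes over 100 kb, 18.7% were higher and 26.4% lower, beside 5 and 9 of the 25 long members. The members' median change was -0.31, against -0.05 over all genes and -0.1 over genes beyond 100 kb. Without the TMM factors 11 members were higher and 10 lower, while the median of all genes moved from -0.05 to 0.24. Without w2, 13 were called.

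From NPC to NB1, the step in which dividing progenitors become neuroblasts, 22 members were higher and 4 lower, with 14.7% and 14.6% of all genes tested, and the median change was 1.25 against 0.06. The 22 included 6 of 9 genes of the GKAP, Shank and Homer layers and 6 of 11 AMPA receptor partners. Without the TMM factors, 20 were higher and 8 lower, while the median of all genes moved from 0.06 to -0.19.

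From NB1 to GCimm1, 15 members were higher and 2 lower, with 7.76% and 4.75% of all genes tested. From GCimm1 to GCimm2, 16 were higher and 0 lower, with 6.52% and 2.91%, or 9.43% in either direction. At an unadjusted p of at most 0.05, edgeR had 1 member lower at that step. DESeq2 called 0 lower, and 1 was called lower without the TMM factors, where the median of all genes was -0.18. Without w2, 9 members were called in each step. Among the calls lost, Anks1b into GCimm1 and Cacng8 and Iqsec2 into GCimm2 had changes of 0.93, 0.91 and 0.77 against 0.88, 0.89 and 0.73 with w2, while those of Cacng3, Slitrk4 and Synpo into GCimm2 shrank from 2.36, 1.48 and 1.32 to 0.91, 0.73 and 0.80.

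From GCimm2 to GCyoung, 19 members were higher and 3 lower, with 9.27% and 9.62% of all genes tested, and the median change was 0.45 against 0.03. Of the 7 signalling and actin scaffolds 6 were higher. Without w4, GCimm2 is left with w2 and the 28 nuclei of w8, GCyoung with the 188 nuclei of w8, and the 6 members still called were Il1rapl2, Cacng3, Dlgap2, Kalrn, Baiap2 and Shisa6. Without the TMM factors, 12 were higher and 4 lower, while the median of all genes moved from 0.03 to -0.23.

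From GCyoung to GCmat1, 2 members were higher and 1 lower, with 1.6% and 2.25% of all genes tested, or 3.85% in either direction. Without w4, 1 was called. Over the whole neuronal course from NB1 to GCmat1, 29 were higher and 3 lower, with 20.2% and 19.9% of all genes tested (40.1% in either direction), and all 7 signalling and actin scaffolds were higher. Without the TMM factors that split was 21 higher and 7 lower, while the median of all genes moved from -0.04 to -0.63.

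**Figure D2:**
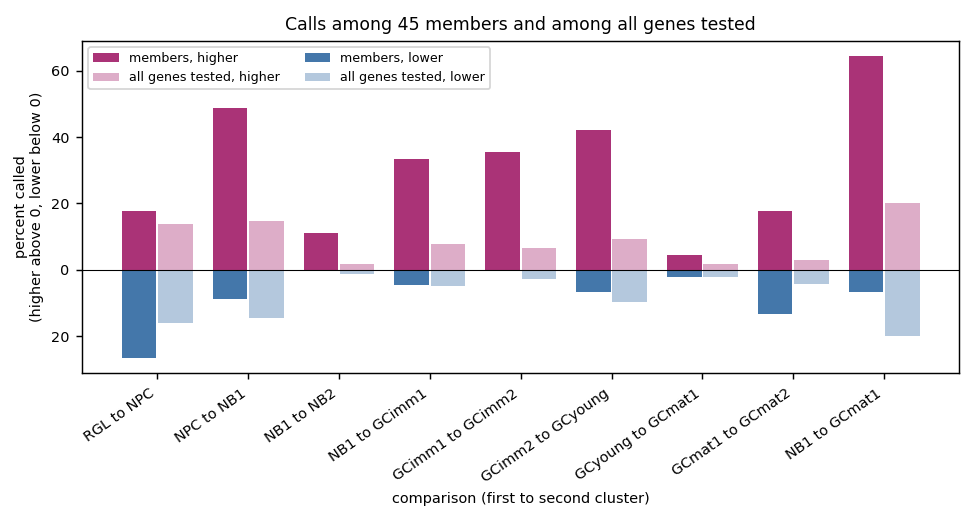
Percent of the 45 members (dark bars) and of all genes tested (light bars) called higher (above 0) or lower (below 0) in each comparison of a first with a second cluster. From NPC to NB1 and from GCimm2 to GCyoung 22 and 19 members were higher, while from GCyoung to GCmat1 3 were called in all.

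Among the MAGUKs, Dlg2 (PSD-93) rose the most. Its CPM was 410, 415, 600 and 472 in RGL of w1, w2, w4 and w8, 114, 132 and 288 in NPC of w1, w2 and w4, and 424, 465 and 547 in NB1 of the same libraries. It then reached 878, 1880 and 2333 in GCimm1 of w1, w2 and w4, 4386, 4562 and 4670 in GCimm2 of w2, w4 and w8, 5982 and 6092 in GCyoung of w4 and w8, and 5200, 6323 and 6195 in GCmat1 of w1, w4 and w8. From NB1 on, each cluster's libraries lay above all those of the cluster before it, except that GCmat1 of w1, which is 17 nuclei, lay below GCyoung. The log2 change was 1.87 ± 0.26 (SE, adjusted p = 8.3e-08) from NB1 to GCimm1 and 4.03 ± 0.28 (adjusted p = 1.2e-17) from NB1 to GCmat1.

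The other Dlg genes did not show a rise of this size. Dlg1 (SAP97) was highest in RGL, at 323 to 396 CPM over the 4 libraries, and stood at 150 to 185 in NB1 and 148 to 224 in GCmat1. It fell by 0.98 ± 0.19 on the log2 scale from RGL to NPC (adjusted p = 4e-05). Dlg4 (PSD-95), the scaffold most used to mark excitatory synapses, was flat from RGL (47.8 to 65.5 CPM) to NB1 (51.7 to 56.8). It rose by 0.84 ± 0.19 from GCimm2 to GCyoung (adjusted p = 5.3e-04). Without w4, which leaves GCyoung with 1 library, the change was 1.07 and the call was lost. The steps from GCimm1 to GCimm2 (0.57) and from GCyoung to GCmat1 (-0.12) were not called. In GCmat1 Dlg4 stood at 84 to 102 CPM, a change of 1.36 ± 0.19 from NB1 (adjusted p = 5.1e-08). Dlg3 (SAP102) had 39.8 CPM in NB1 and 43.2 in GCmat1. Its call from NB1 to GCmat1 (1.09 ± 0.23, adjusted p = 7.9e-05) is one of those that depend on the scaling, and it became 0.54 and was no longer called without the TMM factors.

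Magi1 and Magi2, scaffolds with inverted domain order, peaked at different places. Magi1 was at 690 to 983 CPM in RGL, 1573 to 2106 in NPC and 460 to 627 in NB1, so that NPC stood apart from both neighbours in every library. It rose by 0.84 ± 0.21 into NPC (adjusted p = 0.0012) and fell by 1.57 ± 0.22 into NB1 (adjusted p = 7.8e-08), and the rise was no longer called without w2 (adjusted p = 0.051). Magi2 was at 1356 CPM or more in every library of every trajectory cluster and was highest, on pooled CPM, in GCimm2, at 3337 to 3919. From NB1 to GCmat1 its CPM moved only from 2741 to 2850, and its call there was lost without the TMM factors.

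Lin7a, a small PDZ protein that joins MAGUK complexes, came on, went off and came on again. Its CPM was 1.88 to 9.57 in RGL, 116, 67.8 and 26.2 in NPC of w1, w2 and w4, and 6.6 to 17.9 in NB1. It reached 32.1 to 72 in GCimm1, 173 to 247 in GCimm2 and 263 and 297 in GCyoung, fell back to 57.6 to 121 in GCmat1 and stood at 557 and 304 in GCmat2 of w4 and w8. None of these ranges overlaps that of the cluster before it, but the 26.2 CPM in NPC of w4 is 2 UMIs in 22 nuclei. The log2 changes along this course were 4.27 ± 0.4 (adjusted p = 1.5e-12) from RGL to NPC, -3 ± 0.33 (2e-10) to NB1, 2.5 ± 0.27 (1.9e-10) to GCimm1, 2.05 ± 0.2 (4.5e-11) to GCimm2, 0.59 ± 0.22 (0.047) to GCyoung, -1.38 ± 0.2 (1.8e-06) to GCmat1 and 1.89 ± 0.21 (9.6e-10) to GCmat2. Of these, the step from GCimm2 to GCyoung was lost under most alternatives, with an adjusted p of 0.47 with DESeq2 and 0.51 without w4. The gene was found in 14.8% of NPC nuclei, 2.56% of NB1 nuclei and 70.4% of GCyoung nuclei.

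**Figure D3:**
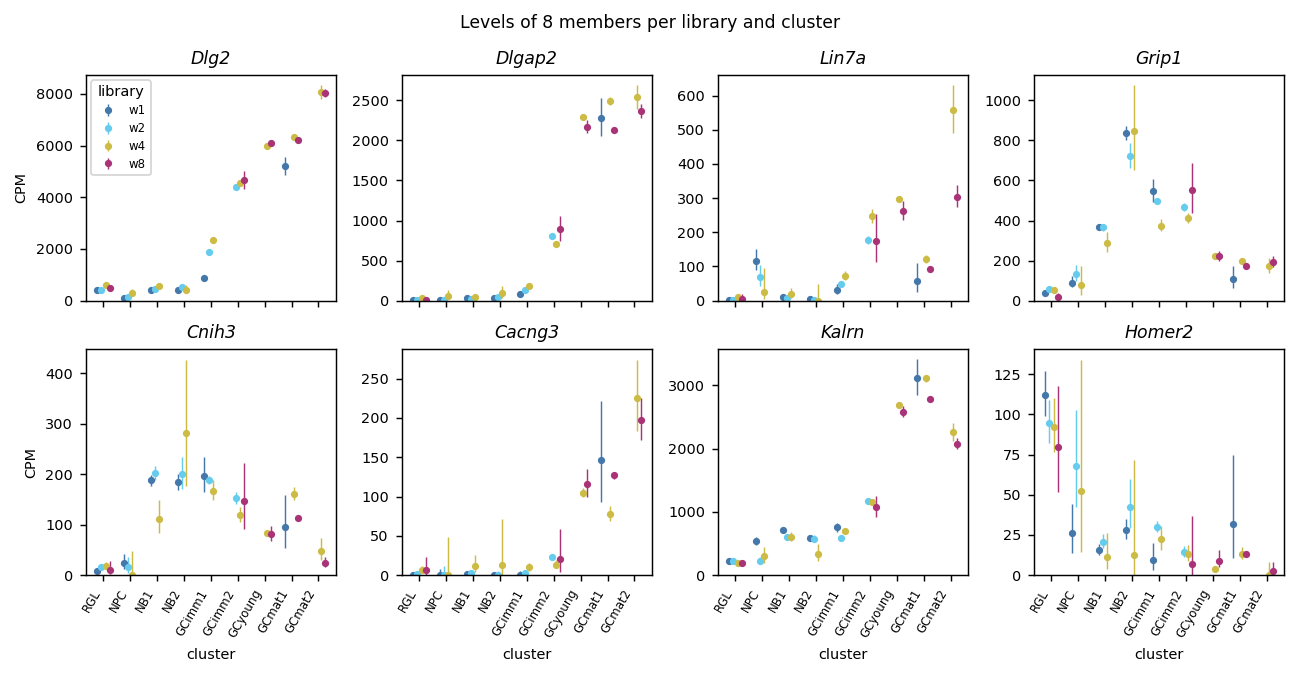
CPM (vertical axes, each from 0) of 8 members in the trajectory clusters (horizontal axis). Each point is 1 library with at least 10 nuclei of the cluster, and the bars are 95% Poisson intervals of the count. Dlg2, Dlgap2, Cacng3 and Kalrn climb late, Lin7a has separate peaks in NPC, GCyoung and GCmat2, Grip1 peaks in NB2 and Homer2 in RGL.

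In the GKAP layer, Dlgap1, Dlgap2 and Dlgap3 (1.74 ± 0.23, adjusted p = 5.8e-09) were higher and Dlgap4 lower in GCmat1 than in NB1. Dlgap2 had 2.61 to 31.7 CPM in RGL, 24.7 to 47.1 in NB1, 87, 136 and 184 in GCimm1 of w1, w2 and w4, 709 to 893 in GCimm2, 2174 and 2288 in GCyoung and 2127 to 2495 in GCmat1. It rose at 3 successive steps, by 1.96 ± 0.3 into GCimm1 (adjusted p = 7.6e-07), 2.52 ± 0.28 into GCimm2 (5.2e-10) and 1.59 ± 0.29 into GCyoung (3.1e-05), the last of which DESeq2 did not call (0.14). Its change of 6.27 ± 0.33 from NB1 to GCmat1 (adjusted p = 1.2e-22) was the largest fitted change of the members in that comparison. Dlgap1 fell by 1.14 ± 0.25 into NPC (adjusted p = 3.0e-04) and then climbed from 962 CPM in NB1 to 5363 in GCmat1, a change of 2.89 ± 0.26 (5.1e-14).

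Dlgap3 came on in NPC, from 4.26 to 54.4 CPM, a change of 3.38 ± 0.37 (adjusted p = 9.3e-11), was at 23 in NB1 and returned to 61.5 in GCmat1 and 117 in GCmat2. Its fall from NPC to NB1 (-0.94 ± 0.28, adjusted p = 0.0065) was -0.22 and not called without w1 (0.79). Dlgap4 rose on entry to NB1, by 1.25 ± 0.21 (adjusted p = 3.4e-06), was highest in NB2 at 235 to 307 CPM and declined to 64.6 to 102 in GCmat1. From NB1 to GCmat1 it fell by 0.64 ± 0.19 (adjusted p = 0.0045), a call that was lost without w1, without w2 and without w4, where it stood at -0.54, -0.56 and -0.71. In GCmat2 it was back at 221 and 164 CPM in w4 and w8, against 64.6 and 82.8 in GCmat1 of the same libraries, a rise of 1.23 ± 0.19 (adjusted p = 4.2e-06).

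The 3 Shank genes, master scaffolds of the spine, all rose from NPC to NB1. Shank1 went from 3.29 to 9.56 CPM in RGL and 0 to 10 in NPC to 49 to 67.2 in NB1, a rise of 3.06 ± 0.42 (adjusted p = 3.2e-08). Shank2 was at 82.8 CPM in RGL, fell to 54.4 in NPC (-0.92 ± 0.28, 0.0086, not called without w2 or without the TMM factors) and rose to 188 in NB1 (2.11 ± 0.27, 4.3e-09). Shank3 was at 14.3 in RGL, 25.6 in NPC and 51.7 in NB1, a rise of 1.3 ± 0.32 into NB1 (0.0011) that was not called without w2 (0.093). At 25% of the maximum, the onset of Shank2 was RGL and that of Shank3 NPC. Shank2 and Shank3 were highest in NB2, with 310 and 85.1 CPM against 188 and 51.7 in NB1, but of these only Shank3 was called (0.69 ± 0.18, adjusted p = 0.021), and it was not without w1 (adjusted p = 0.81) or without w2 (0.055). Shank1 was highest in GCimm2 and lower in GCyoung and GCmat1, where its libraries stood between 40.3 and 57.6 CPM against 66.6 to 85.2 in GCimm2, a change of -0.53 ± 0.19 into GCyoung (adjusted p = 0.036) that is below the fold threshold. From NB1 to GCmat1, Shank2 (0.68 ± 0.19, 0.0036) and Shank3 (0.94 ± 0.21, 1.6e-04) were called higher, with values of 0.15 and 0.37 and no call without the TMM factors.

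Homer2 and Homer3, which link Shank to metabotropic glutamate receptors and calcium stores, belonged to the early clusters. Homer2 had 79.7 to 112 CPM in RGL, 26.1 to 67.8 in NPC and 11.2 to 20.8 in NB1, and fell by 1.51 ± 0.29 (adjusted p = 2.9e-05) and 1.08 ± 0.35 (0.014) at these steps, the second of which was not called without w2 (0.32) or in thinned nuclei (0.53). It then had opposite calls, higher in NB2 (0.93 ± 0.26, adjusted p = 0.035), lower from GCimm2 to GCyoung (-1.03 ± 0.34, 0.023), higher from GCyoung to GCmat1 (1.51 ± 0.31, 7.4e-04) and lower in GCmat2, where 3 UMIs were seen. That last ratio was 6.96 with a counting interval of 2.36 to 33.9, and each of these 4 calls was lost when 1 library was left out. The one into GCyoung turned to 0.19 without w4. Homer3 was at 22.5 CPM in RGL, 37.8 in NPC and 9.81 to 11.6 in the pooled clusters from GCimm1 to GCmat1. It fell by 0.78 ± 0.25 from NB1 to GCimm1 (adjusted p = 0.022), not called without w2 (0.54) or w4 (0.12), with DESeq2 (0.053) or without a library term (0.08). On the opposite strand of Homer3 lies Ddx49 with 1539 UMIs against 1171, and the study's methods name default counting settings without stating the strand setting. Opposite Shank1 lies 1700008O03Rik with 1346 UMIs against 4710, opposite Shank2 lies Gm14372 with 1622 against 17145, and opposite Dlgap4 lies Gm14172 with 1420 against 12127.

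**Figure D4:**
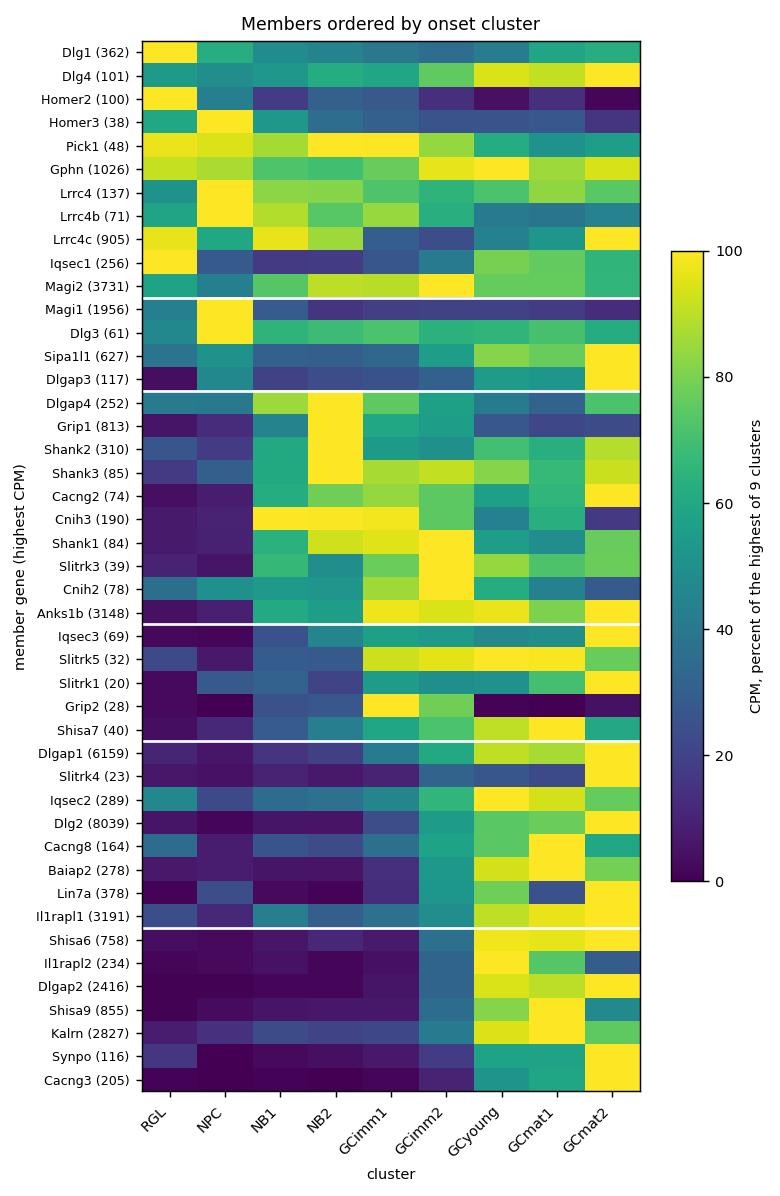
Level of each member (rows, with its highest CPM in brackets) in 9 clusters (columns), as a percent of the highest of the 9. White lines separate members by the cluster of onset, from RGL at the top to GCyoung at the bottom, where Shisa6, Il1rapl2, Dlgap2, Shisa9, Kalrn, Synpo and Cacng3 stay below 50% up to GCimm2.

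The AMPA receptor partners differed in their course. Their order was read from the cluster in which the level first reached 50% of its highest. The PDZ protein Pick1 falls in RGL only because it never dropped below 50%, with a ratio of highest to lowest of 1.93. The PDZ scaffold Grip1, the cornichons Cnih2 and Cnih3 and the TARP stargazin (Cacng2) followed in NB1, Grip2 and Shisa7 in GCimm1, the TARP Cacng8 in GCimm2, and the TARP Cacng3 with Shisa6 and Shisa9 in GCyoung. The place of Cnih2 in this order is not firm, as it moved to NPC by the mean over libraries, in thinned nuclei, in libraries of at least 10 nuclei and without w1, and to GCimm1 without w2. Shisa7 moved to GCimm2 on TMM-scaled CPM and Shisa9 to GCimm2 by the mean over libraries. As examples of the start regions of members whose level changed along the trajectory, the 250 bases before the RefSeq start (GRCm38.p6, 5′ to 3′) of Cacng2 and of the adhesion gene Il1rapl2 are printed here, and no link between motif and course is drawn from them. Capitals mark CAGCTG, an E-box that basic helix-loop-helix factors can bind, and TGACG or its reverse complement, a core of cAMP response elements.
Cacng2, chr15:78119281-78119530, minus strand: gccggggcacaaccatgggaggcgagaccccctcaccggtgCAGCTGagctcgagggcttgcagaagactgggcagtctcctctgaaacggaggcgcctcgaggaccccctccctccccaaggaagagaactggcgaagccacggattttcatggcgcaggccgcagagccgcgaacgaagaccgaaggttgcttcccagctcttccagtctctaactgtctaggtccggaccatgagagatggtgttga
Il1rapl2, chrX:137570504-137570753, plus strand: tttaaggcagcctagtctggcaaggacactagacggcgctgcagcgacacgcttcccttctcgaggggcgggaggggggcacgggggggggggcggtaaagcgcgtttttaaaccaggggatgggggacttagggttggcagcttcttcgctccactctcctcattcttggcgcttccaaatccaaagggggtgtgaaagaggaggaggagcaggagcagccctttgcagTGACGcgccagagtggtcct

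CAGCTG, which reads the same on both strands, occurs once in the window of Cacng2 and not in that of Il1rapl2, and is found in 13% of the 32851 RefSeq windows of this length. TGACG, searched on both strands, occurs once in the Il1rapl2 window and is found in 17.8% of windows. The 2 motifs do not overlap. The RefSeq starts lie 748 and 146 bases inside the GENCODE spans of Cacng2 and Il1rapl2. By that annotation the Cacng2 window lies wholly inside the gene and the Il1rapl2 window partly so. Of the 45 members 38 have a window in the RefSeq table.

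Cacng2 had 0 to 9.24 CPM in the libraries of RGL and NPC and 35.8 to 55.8 in NB1, a rise of 3.29 ± 0.52 (adjusted p = 8e-07), and no later step of it was called. Cacng3 had 0 to 6.37 CPM in RGL, 0 in all NPC libraries, 0.786, 2.2 and 11.2 in NB1 of w1, w2 and w4, 13.4 to 22.7 in GCimm2, 105 and 116 in GCyoung and 77.9 to 147 in GCmat1. It rose by 2.36 ± 0.38 into GCimm2 (adjusted p = 5.8e-06), by 2.69 ± 0.33 into GCyoung (8.5e-09) and by 6.01 ± 0.47 from NB1 to GCmat1 (2.7e-15). Without w2 the first step was 0.91 (adjusted p = 0.73), and DESeq2 called neither of the first 2 steps (0.24 and 0.19). It was found in 0.865% of RGL nuclei and 54.5% of GCmat1 nuclei, or 0.656% and 20.1% at 2000 UMIs per nucleus.

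Low levels of late genes in stem cells moved with the library. In RGL, Cacng3 had 0, 1.88, 5.89 and 6.37 CPM and Shisa9 had 0.87, 1.88, 14 and 15.9 CPM in w1, w2, w4 and w8, and the later libraries are those with most mature granule cells. The part of free RNA in these values was not tested.

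Cnih3, an auxiliary subunit that slows AMPA receptor closing, was at 0 to 24 CPM in NPC and 112 to 202 in NB1, a rise of 3.49 ± 0.34 (adjusted p = 2.3e-12). It stayed at 167 to 197 CPM in GCimm1, was at 81.6 and 84 in GCyoung and 96.1 to 161 in GCmat1, and its call from GCyoung to GCmat1 (0.7 ± 0.2, adjusted p = 0.023) was lost without w2, w4 or w8, with adjusted p of 0.066, 0.71 and 0.17, and with DESeq2 (0.53). Cnih2 rose on the CPM scale from 41.9 in NB1 to 77.5 in GCimm2 and was at 34.1 in GCmat1. No single step between these clusters was called, and its call from NB1 to GCmat1 (0.65 ± 0.21, adjusted p = 0.01) had opposite CPM directions in w1 and w4, became 0.04 without the TMM factors and was lost under most other alternatives.

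Grip1, which binds the GluA2 tail, marked NB2. Its CPM was 368, 366 and 289 in NB1 and 836, 722 and 846 in NB2 of w1, w2 and w4, 375 to 547 in GCimm1, 412 to 553 in GCimm2 and 222 in GCyoung of both w4 and w8. It rose by 1.99 ± 0.26 into NB1 (adjusted p = 6.8e-09) and by 1.18 ± 0.2 into NB2 (2.7e-05). It fell by 0.71 ± 0.23 from GCimm2 to GCyoung (0.018), a call lost without w4 (0.18), without w8 (0.11) and, by size (-0.53), with sums of at least 30 nuclei.

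Grip2 was highest in the immature granule cells. It was at 0 of 899910 UMIs in NPC, at 6.6 to 7.34 CPM in NB1, 24.4 to 30.8 in GCimm1, 6.66 to 24.1 in GCimm2, and 0.317 and 0 in GCyoung. NB1 was at least 2.06-fold higher than NPC, against a floor of 3 UMIs over the NPC libraries, with an adjusted p of 0.0053 that became 0.11 without w1 and 0.057 without w2. The change was 2.08 ± 0.29 into GCimm1 (adjusted p = 2.4e-07) and -5.59 ± 0.53 into GCyoung (1.2e-11), the latter without a call if w4 is left out (0.45). From NB1 to GCmat1, where 2 UMIs were seen, the fitted change was -4.05 ± 0.87 (adjusted p = 1.4e-04), while the ratio of the pooled levels, which ignores the library term and the TMM factors, was 100 with a counting interval of 26.8 to 842. Pick1, a further PDZ partner of GluA2, was never called and lay between 24.8 and 48.1 CPM in the pooled trajectory clusters.

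Shisa6 and Shisa9, which keep AMPA receptors in place or slow their recovery, both rose into GCimm2 and into GCyoung. Shisa6 had 35.1 to 74.5 CPM in GCimm1, 267 to 326 in GCimm2, 726 and 742 in GCyoung and 661 to 740 in GCmat1, with changes of 2.44 ± 0.2 (adjusted p = 9e-14) and 1.44 ± 0.2 (1.4e-07). Earlier it rose from 18.9 CPM in NPC to 44.8 in NB1 (1.54 ± 0.38, 0.0012), a step at which Shisa9 was not called (1.1 ± 0.46, 0.065). It was also higher in NB2 than in NB1, by 0.98 ± 0.22 (0.0031), not without w1 (0.17) or w2 (0.11). Gm12296, on its opposite strand, held 9344 UMIs against 39265. Shisa9 had 42.9 to 136 CPM in GCimm1, 256 to 513 in GCimm2 and 690 and 819 in GCyoung, and rose by 2.17 ± 0.26 (3.6e-09) and 0.89 ± 0.27 (0.011), of which the second was lost with DESeq2 (0.62, adjusted p = 0.58), without w4 (0.18) or w8 (0.064), with sums of at least 30 nuclei (0.063) and without the TMM factors (0.072). It was higher in NPC than RGL by 2.34 ± 0.64 (0.0035), from 4.92 to 26.7 CPM, a call lost in nuclei thinned to 2000 UMIs (0.052) and without a library term (0.057). Shisa7 rose more evenly, from 11.7 CPM in NB1 to 40.4 in GCmat1 (2.19 ± 0.28, 5.3e-09).

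Cacng8, the TARP known for its abundance in the hippocampus, had a gap in NPC. It was at 44.6 to 60.6 CPM in RGL, 0 to 16 in NPC, 26.9 to 44.8 in NB1, 82.4 to 107 in GCimm2 and 89.7 to 166 in GCmat1. It fell by 2.41 ± 0.41 (adjusted p = 3.9e-06), rose by 1.9 ± 0.43 (3.7e-04) and was 2.51 ± 0.21 higher in GCmat1 than in NB1 (1e-14).

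**Figure D5:**
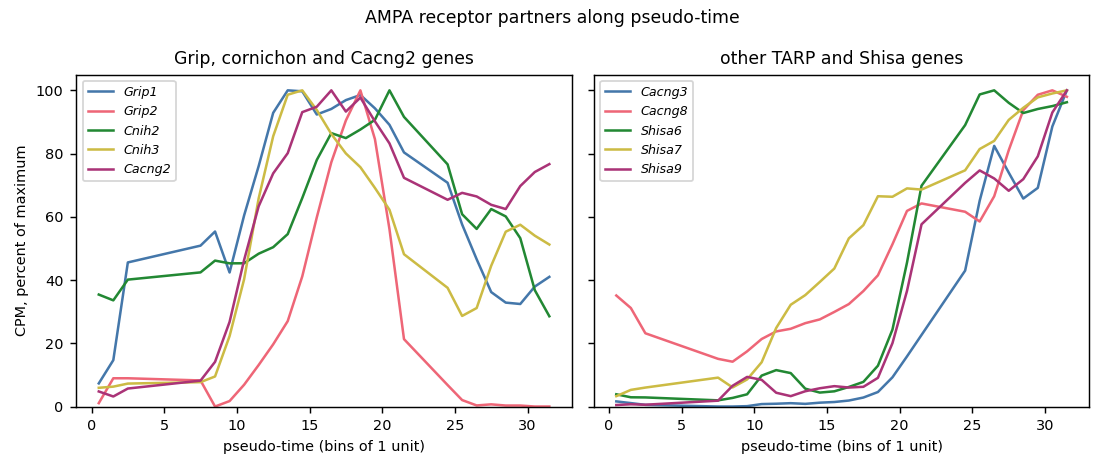
CPM of 10 AMPA receptor partners as a percent of each gene's maximum (vertical axis) along the deposited pseudo-time, in bins of 1 unit with at least 20 nuclei and a running mean over 3 bins, libraries pooled. Grip1, Cnih3 and Cacng2 cross 50% between 9.9 and 10.9, Shisa6 and Shisa9 between 20.7 and 21.1 and Cacng3 at 24.8.

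Of the inhibitory postsynapse, Gphn was broadly present and never called, at 744 CPM in NB1, 1026 in GCyoung and 935 in RGL, and in 86.2% or more of nuclei of each trajectory cluster. Slitrk3, an adhesion molecule of inhibitory synapses, and Iqsec3, an Arf exchange factor that binds gephyrin, both rose from NPC to NB1. Slitrk3 had 2 UMIs in NPC and 24.5 to 29.1 CPM in NB1, a ratio of 11.6 (counting interval 3.19 to 96.6, adjusted p of the fit = 9e-06), and Iqsec3 had 1 UMI and 16.2 to 26.9 CPM, a ratio of 15.4 (2.74 to 613, adjusted p of the fit = 1.2e-04). Iqsec3 rose again into GCimm1 by 1.28 ± 0.21 (5.1e-06), while the call of Slitrk3 from NB1 to GCmat1 (0.64 ± 0.26, 0.042) became 0.05 without the TMM factors and was lost under most other alternatives, DESeq2 (0.1) among them.

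The postsynaptic adhesion genes had no common course. Lrrc4c, the netrin-G1 ligand NGL-1, was at 811 to 1058 CPM in RGL, at a pooled 539 in NPC, 794 to 959 in NB1, 266 to 342 in GCimm1 and 203 to 240 in GCimm2, then at 397 and 404 in GCyoung, 384 to 490 in GCmat1 and 765 and 962 in GCmat2. It fell by 0.93 ± 0.19 into NPC (adjusted p = 9.9e-05) and rose by 0.9 ± 0.2 into NB1 (2.4e-04), in 3 of 3 libraries each. It fell by 1.48 ± 0.19 from NB1 to GCimm1 (adjusted p = 1.1e-08) and rose by 0.99 ± 0.21 into GCyoung (3.2e-04, and 0.22 without w4) and 0.94 ± 0.21 into GCmat2 (0.001), the last of which was not called without w4 (0.068). The difference of -0.65 ± 0.2 between NB1 and GCmat1 (0.0055) was not called without w4 (0.11), and without w1 it came to -0.53, below the fold threshold. Its relatives Lrrc4 (NGL-2) and Lrrc4b (NGL-3) were highest in NPC, at 137 and 71.1 CPM, with a call for Lrrc4 from RGL (0.61 ± 0.2, 0.018) that was not made without w1, w2 or w8 (0.07, 0.24 and 0.05) or in thinned nuclei (0.16), and none for Lrrc4b at any step. From NB1 to GCmat1 Lrrc4 was called higher (0.76 ± 0.18, 4.1e-04) at CPM of 113 and 114, and without the TMM factors the value was 0.22 with no call, nor was it called without w4 (0.11). Lrrc4 lies inside Snd1 on the other strand, which had 12242 UMIs against 9509.

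Il1rapl1 and Il1rapl2, X-linked receptors that organise synapses through presynaptic phosphatases, differed in their level in the first clusters. Il1rapl1 was already at 699 to 834 CPM in RGL, fell to 287 to 629 in NPC (-1.23 ± 0.24, adjusted p = 3.4e-05), was at 1276 to 1562 in NB1 (2.08 ± 0.24, 6.6e-10) and rose again into GCyoung, at 2874 and 2998 (1.09 ± 0.24, 5.2e-04, and 0.13 without w4). Il1rapl2 had 0 to 12.1 CPM in all libraries of RGL, NPC, NB1 and GCimm1, 95.4, 35.8 and 13.3 in GCimm2 of w2, w4 and w8, 229 and 296 in GCyoung of w4 and w8 and 70.4, 245 and 162 in GCmat1 of w1, w4 and w8. It rose by 2.99 ± 0.33 into GCimm2 (5.5e-10), 2.75 ± 0.32 into GCyoung (1.1e-09) and 4.82 ± 0.36 from NB1 to GCmat1 (2.6e-16). Its window before the RefSeq start is printed above beside that of Cacng2.

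Slitrk1, Slitrk4 and Slitrk5, adhesion molecules that act mostly at excitatory synapses, were sparse. Slitrk5 rose from 7.7 to 12 CPM in NB1 to 27.5 to 37.5 in GCimm1 (1.61 ± 0.23, adjusted p = 2.5e-07) and stood at 32.2 in GCmat1. Slitrk1 went from 6.24 CPM in NB1 to 14 in GCmat1, and its call from RGL to NPC rests on 3 and 5 UMIs, a ratio of 11.3 with a counting interval of 2.2 to 72.8 (adjusted p of the fit = 0.017, and 0.1 without w1 and 0.15 without w2). Slitrk4 stayed at or under 10.4 CPM up to GCmat1 and was at 35.4 and 18.1 in GCmat2 of w4 and w8.

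The signalling and actin scaffolds mostly rose late, but some had also risen before. Kalrn, a guanine nucleotide exchange factor of spines, was at a pooled 215 CPM in RGL and 404 in NPC. It was called higher in NB1, at 601 to 706 CPM (1.09 ± 0.25, adjusted p = 3.8e-04, and 0.056 without w2). Its CPM was 586 to 753 in GCimm1, 1073 to 1167 in GCimm2, 2583 and 2683 in GCyoung and 2785 to 3119 in GCmat1. The later rises were 0.99 ± 0.23 into GCimm2 (adjusted p = 0.0015, and 0.15 without w2) and 1.51 ± 0.25 into GCyoung (4.1e-06). Baiap2 (IRSp53), which bends membrane at spines, went from 12.7 to 47.1 CPM in NB1 to 127 to 150 in GCimm2 and 239 to 320 in GCmat1, a change of 4.18 ± 0.25 (4.1e-20). Synpo, a protein of the spine apparatus, had 14.6 to 28 CPM in RGL, 0 in all NPC libraries, 2.94 to 4.48 in NB1, 13.3 to 20.7 in GCimm2 and 60.6 and 67.7 in GCyoung. NPC was at least 5.46-fold lower than RGL for Synpo, against a floor of 3 UMIs over the NPC libraries (adjusted p = 1.3e-05), and the rise into GCyoung was 1.69 ± 0.22 (4.9e-08), not called without w4 (0.075).

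Iqsec1, an Arf6 exchange factor, was high at both ends. It was at 236 to 276 CPM in RGL, 62.1 to 91.7 in NPC, 41.2 to 51.5 in NB1, 195 and 204 in GCyoung and 173 to 240 in GCmat1, a fall of 2.08 ± 0.23 into NPC (adjusted p = 1.5e-10) and a rise of 2.74 ± 0.2 from NB1 to GCmat1 (5e-17). Iqsec2, of the same family, was at 135 CPM in RGL and 63.3 in NPC (-1.45 ± 0.25, 7.4e-06), was called higher in NB1, at 102 (0.94 ± 0.26, 0.0042), where Iqsec1 was lowest, and reached 270 in GCmat1. Sipa1l1 (SPAR), a Rap regulator, was at 238 CPM in RGL, 321 in NPC, 194 in NB1 and 482 in GCmat1. It was 1.78 ± 0.19 higher in GCmat1 than in NB1 (2e-11). Anks1b (AIDA-1), which binds PSD-95, rose into NB1 from 263, 336 and 131 CPM in NPC to 1908, 1965 and 1656 in NB1 of w1, w2 and w4 (3.05 ± 0.26, 2.8e-14), and it rose by a further 0.88 ± 0.22 into GCimm1 (0.0028), not without w2 (0.059) or w4 (0.14). Its rise from NB1 to GCmat1 (0.97 ± 0.23, 5.8e-04) was 0.49 and not called without the TMM factors, and not without w4 (0.078).

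NB2 differed from NB1 in 5 members, 5 higher and 0 lower, where 1.81% of all genes tested were higher and 1.13% lower. At an unadjusted p of at most 0.05, edgeR had 4 members lower, and DESeq2 called 0 lower. The 5 higher members were Grip1, Shisa6, Homer2, Iqsec3 and Shank3. Only Grip1 was called under every alternative that was run, and the count was 1 without w1 or without w2. NB2 is 560, 148 and 18 nuclei in w1, w2 and w4. The summed level of 6 markers of CA3 and mossy cells ran from 97.1 CPM in RGL to 1184 CPM in NB2. These markers include Calb2, which is also on the list of neuroblast markers used here, and no sum was taken without it. Their part in these differences was not tested.

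GCmat2, which is 60 nuclei in w4 and 149 in w8, differed from GCmat1 in 14 members, 8 higher and 6 lower, where 3.01% and 4.28% of all genes tested were called, 7.3% in either direction. Slitrk4 (2.18 ± 0.46, adjusted p = 7.3e-04), Lin7a, Dlgap4, Lrrc4c, Dlgap3, Iqsec3, Cacng3 and Synpo were higher. Cnih3 was lower, with 48.6 and 24.4 CPM in w4 and w8 against 161 and 114 in GCmat1 (-2.05 ± 0.28, 2e-07), as were Homer2, Il1rapl2 (-1.41 ± 0.31, 8.6e-04), Shisa9, Cnih2 and Cacng8. Lin7a, Dlgap4 and Cnih3 were called under every alternative run. Without w4 8 and without w8 7 members were called, Slitrk4 not without w4 (0.12) or with DESeq2 (0.059) and Il1rapl2 not without w8 (0.27) or with DESeq2 (0.73). DESeq2 gave Cacng3 the other direction (-0.28, adjusted p = 0.97).

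The onset of a member was taken as the first of RGL, NPC, NB1, GCimm1, GCimm2, GCyoung and GCmat1 whose pooled CPM reached 50% of the highest of the 7, as a description with no test. By this rule 11 members had their onset in RGL, 4 in NPC, 10 in NB1, 5 in GCimm1, 8 in GCimm2, 7 in GCyoung and 0 in GCmat1. Gphn, Dlg4, Pick1 and Lrrc4 had ratios of highest to lowest cluster of 1.38, 1.91, 1.93 and 1.96. They never fell below 50%, so the rule places them in RGL whatever their course. The 10 of NB1 hold all 3 Shank genes, Grip1, Cnih2, Cnih3, Cacng2, Slitrk3, Anks1b and Dlgap4. Dlgap4 moved to RGL by the mean over libraries, in thinned nuclei, on TMM-scaled CPM and without w1. Dlg4, placed in RGL, moved to GCyoung on TMM-scaled CPM and to GCimm1 without w4. The 7 of GCyoung are Dlgap2, Cacng3, Shisa6, Shisa9, Il1rapl2, Kalrn and Synpo. On TMM-scaled CPM, 11 members had their onset in GCyoung.

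Along the deposited pseudo-time, where RGL nuclei have a median of 1.1, NB1 13, GCimm2 19.9, GCyoung 27.2 and GCmat1 30, 35 members had an upward crossing of 50% of their maximum, of which the last before the maximum is given. Magi2, Dlgap3, Dlgap4, Grip1 and Sipa1l1 had been at or above 50% in earlier bins too and had dipped below it, Magi2 from the first bin on and Dlgap3 at 8.5, so their values are returns and not first onsets. The other 10, Dlg1, Dlg4, Homer2, Homer3, Pick1, Gphn, Lrrc4, Lrrc4b, Lrrc4c and Iqsec1, were above 50% from the first bin up to their maximum. Magi1, Dlg3, Dlgap4 and Magi2 had the lowest values, at 0.7, 1.3, 7.6 and 9.8. Crossings of Grip1, Shank2, Shank3, Cacng2, Cnih3, Shank1 and Slitrk3 lay between 9.9 and 11.4. Those of Cnih2, Anks1b and Iqsec3 followed at 12.3, 12.5 and 12.9, Slitrk5, Slitrk1, Grip2 and Shisa7 between 14.4 and 16.2, and Dlgap1, Iqsec2, Slitrk4, Dlg2, Sipa1l1 and Cacng8 between 17.9 and 19.4. The last were Baiap2, Dlgap3, Lin7a, Il1rapl1, Shisa6, Il1rapl2, Dlgap2, Shisa9 and Kalrn between 20 and 21.3, Synpo at 22.6 and Cacng3 at 24.8. Several of these values moved when 1 library was left out. Without w1, Cnih2 was at 1.6, Dlgap4 at 1.4 and Dlg3 at 2.1, without w4 Slitrk5 was at 25.6 and Slitrk1 at 20.5, and without w2 Magi1 and Magi2 had no crossing. In bins of 200 nuclei Slitrk1 was at 29.5, Dlgap4 at 2.9 and Cacng8 at 25.5. Of the 10 with no crossing, Dlg4 crossed at 13.5 without w1, at 17.7 without w2 or without w4 and at 17.1 in bins of 200 nuclei. Lrrc4, Lrrc4b and Lrrc4c crossed at 1.1, 1.9 and 12.1 in those bins, and Lrrc4 and Homer3 at 1.0 and 0.9 without w1. No bin centred between 21.5 and 24.5, or between 2.5 and 7.5, held at least 20 nuclei. The value of Synpo is read across the upper gap. The running mean over 3 neighbouring bins also spans that gap in the values of Il1rapl1, Shisa6, Il1rapl2, Dlgap2, Shisa9, Kalrn and Cacng3. It spans the lower gap in the value of Dlgap4.

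Within a cluster the weeks are given side by side with no test, as each is 1 pool. In GCimm1 of w1, w2 and w4, Dlg2 had 878, 1880 and 2333 CPM, Dlgap2 87, 136 and 184, Lin7a 32.1, 47.4 and 72 and Baiap2 12.2, 36.6 and 60.9, each higher in the later week. Magi1 had 545, 354 and 413 and Anks1b 2894, 3034 and 3399. In GCmat1 of w4 and w8, Dlg2 had 6323 and 6195, Dlgap1 5628 and 5330, Cnih3 161 and 114 and Cacng3 77.9 and 127. Nuclei of 1 cluster may lie at different places along the trajectory in different weeks, and the part of this in these values was not tested.

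Other genes of the postsynapse, on lists chosen with earlier results known, were counted in the same way. Of 53 further excitatory genes, 7 were higher and 16 lower from RGL to NPC, where 13.7% and 15.9% of all genes tested were, 25 and 6 from NPC to NB1 (14.7% and 14.6%), 15 and 0 from NB1 to GCimm1 (7.76% and 4.75%), 15 and 1 from GCimm1 to GCimm2 (6.52% and 2.91%) and 20 and 5 from GCimm2 to GCyoung (9.27% and 9.62%). They were 2 and 0 from GCyoung to GCmat1 (1.6% and 2.25%), 3 and 8 from GCmat1 to GCmat2 (3.01% and 4.28%) and 2 and 1 from NB1 to NB2 (1.81% and 1.13%). From NB1 to GCmat1 they were 34 and 4 (20.2% and 19.9%), with a median change of 1.26 beside 0.98 of the members. They included the scaffold Tanc1 (4.29 ± 0.29, adjusted p = 4e-17) and the TARP Cacng4 (-4.17 ± 0.41, 1.5e-11) at GCimm2 to GCyoung, and Neto1, a kainate receptor partner (3.42 ± 0.34, 4e-11), at GCimm1 to GCimm2. Of 17 inhibitory genes tested, 2 were higher and 4 lower from RGL to NPC (13.7% and 15.9%), and 8 and 1 from NPC to NB1 (14.7% and 14.6%). From NB1 to NB2 0 and 1 were (1.81% and 1.13%), and from NB1 to GCimm1 4 and 1 (7.76% and 4.75%). From GCimm1 to GCimm2 7 and 0 were (6.52% and 2.91%), and from GCimm2 to GCyoung 6 and 2 (9.27% and 9.62%). From GCyoung to GCmat1 edgeR called 0 and 0 (3.85% of all genes in either direction), and from GCmat1 to GCmat2 0 and 1 (3.01% and 4.28%). From NB1 to GCmat1 10 and 2 were called (20.2% and 19.9%). Among these last was the GABA-A receptor subunit Gabrd (4.02 ± 0.51, 2.6e-09).

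Members were not limited to neurons. In oligodendrocyte precursors (OPC), which form synapses with neurons, they made up 2.68% to 3.1% of UMIs in the 4 libraries, against 0.459% and 0.464% in pericytes. Anks1b had 4622 to 5890 CPM and Il1rapl1 3574 to 4439 CPM in OPC, while Cnih3 and Cacng2 had 0 UMIs there, which allows up to 4.44 CPM. These clusters entered no comparison.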

How the data were processed

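Per the study's methods, the authors aligned reads to GRCm38 with STARsolo, left out multi-mapped reads, counted exonic and intronic UMIs, and removed doublets (scDblFinder), low-quality nuclei and a set of w4 nuclei that stood apart. The deposited count matrices hold raw UMI counts per gene and barcode. The deposited log2 table, log2 of counts over scran size factors plus 1, was used only for each nucleus's library, cluster and pseudo-time. The methods name default settings for counting, which in STARsolo take the forward strand, but do not state the strand setting itself. For the granule cell trajectory, NB2, GCmat2 and astrocyte clusters, UMI counts were added up in each library with 10 or more nuclei and fitted with edgeR 4.0.16 in R 4.3.3 (quasi-likelihood, TMM, terms for cluster and library, 16 residual degrees of freedom), after a test on simulated counts. Alternatives were DESeq2 1.42.0, other scalings and filters, thinning and leaving out each library. Every member was named, with statistics given for a selection of the called changes, large and small. Among the large ones left out above are the log2 changes from NB1 to GCmat1 of Synpo (4.53), Shisa6 (4.17), Shisa9 (3.79) and Lin7a (3.76). The members and lists were chosen with earlier results of these data known. Intervals are Poisson and cover counting error only. The windows before gene starts came from RefSeq (GRCm38.p6). Some items are not reported here.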

Additional observations from a re-analysis of the deposited data

Results flagged for a closer look

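Lrrc4c had its highest level outside the compared clusters. In OPC it was at 8830 CPM (8351, 7974, 8741 and 10237 in w1, w2, w4 and w8), against 1587 CPM in astrocytes, the highest of the clusters that entered the fit. OPC entered no comparison.

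For 10 called changes of members the libraries moved in opposite directions on the CPM scale, and the difference between libraries was not tested. Slitrk1 from RGL to NPC (3.17) rose from 0 to 4.01 CPM in w1 and fell from 0.736 to 0 in w4. Dlgap2 from NPC to NB1 (1.79) rose from 4.01 to 37.2 in w1 and went from 52.4 to 47.1 in w4. Dlgap3 at the same step (-0.94) fell from 68.1 to 21.1 in w1 and went from 26.2 to 29.1 in w4, where 2 UMIs were seen in NPC.

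Iqsec3 from NB1 to NB2 (0.9) rose from 17.6 to 37.2 in w2 and went from 26.9 to 25.6 in w4. Baiap2 from NB1 to GCimm1 (1.12) rose from 17.4 to 36.6 in w2 and went from 12.7 to 12.2 in w1. Homer2 from GCimm2 to GCyoung (-1.03) fell from 13.4 to 4.05 in w4 and went from 6.66, which is 1 UMI, to 9.06 in w8.

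From NB1 to GCmat1, w1 and w4 went opposite ways in 4 members, with 17 nuclei in GCmat1 of w1. Shank2 (0.68) went from 192 to 250 CPM in w1 and from 195 to 176 in w4, and Cnih2 (0.65) from 27.7 to 38.4 and from 56 to 54.6. Slitrk3 (0.64) went from 26.6 to 25.6 and from 29.1 to 29.4, and Lrrc4 (0.76) from 133 to 128 and from 78.4 to 99.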

How the results depend on the processing

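Of 155 called changes of members, 103 were called under every alternative other than leaving out a library, and 79 under those and every library left out. Scaling to total UMIs, and onsets from libraries of at least 10 nuclei or from TMM-scaled CPM, were chosen after seeing the data. Of 93 counts under other settings 80 were within 1.5 times the main count, and of 52 with a library left out 40 were. From NB1 to NB2 the count of 5 was 1 without a library term and 3 with DESeq2 or in thinned nuclei. From GCyoung to GCmat1 DESeq2 called 1, not 3. From GCmat1 to GCmat2 the count of 14 was 9 without a library term, 8 with DESeq2 and 7 in thinned nuclei. For these counts and those with a library left out, no share of all genes called is given. A loss among the members therefore cannot be told apart from a loss over all genes. With a library left out, counts ran from 13 to 19 (RGL to NPC), 22 to 27 (NPC to NB1), 1 to 5 (NB1 to NB2), 9 to 18 (NB1 to GCimm1), 9 to 17 (GCimm1 to GCimm2), 6 to 23 (GCimm2 to GCyoung), 1 to 3 (GCyoung to GCmat1), 7 to 15 (GCmat1 to GCmat2) and 25 to 34 (NB1 to GCmat1). Onsets in RGL or NPC, 15, became 25 at 25% of the maximum, and onsets in GCyoung or GCmat1, 7, became 1 at 25%, 16 at 75% and 11 on TMM-scaled CPM. The median onset in pseudo-time, 16.2, was 12.9 at 25% and 19.4 at 75%, and 14.8 to 17.9 with a library left out. Homer2 from GCimm2 to GCyoung turned to 0.19 without w4 (from -1.26 to 0.19 over the libraries left out), and Cacng3 from GCmat1 to GCmat2 to -0.28 with DESeq2. The cause of these was not tested. Through the library term, clusters were compared within libraries only where a library held both. For NB1 to GCmat1 these were w1, with 17 GCmat1 nuclei, and w4. The 2927 GCmat1 nuclei of w8 had no NB1 sum beside them. Such sums are linked through clusters that libraries share, taking library effects as additive, so week and pool are not held constant there. Between weeks, no paired analysis was possible because each week is 1 library. With 1 pool per week, weeks cannot be tested, and clusters rest on as few as 17 or 18 nuclei in a library.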
